A study of Mus musculus with 5 samples.

Results

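Dendritic cell progenitors were sought among Lin-kit+ bone marrow cells of the mouse, cells that lack markers of mature lineages and carry the receptor Kit on their surface. A cell was kept when it held at least 1 UMI of Irf8, no UMI of Cd79a, under 1% of its UMIs from S100a8 and S100a9 together, at most 4 UMIs of Ltf, and at least 1 UMI in 2 or more of the 5 genes H2-Aa, H2-Ab1, H2-Eb1, Siglech and Cd209a. A UMI, or unique molecular identifier, marks 1 captured transcript, so that PCR copies are not counted again. The rule kept 496 of 11581 Lin-kit+ cells, and these are called dendritic-gated cells here. Because measured transcripts chose the cells, the values of the 10 genes in the rule are a description of that choice and carry no test.

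Lin-CD45.2+c-kit+ cells were sorted from mice labelled Fgd5CreERT2/+Rosa26Tomato/+, aged 20 weeks, with no treatment given in the labels, and 3 libraries of them were made with the Chromium system. The Fgd5 allele joins ZsGreen and CreERT2 to the Fgd5 locus, and the Tomato allele stays silent without tamoxifen, so that all cells compared here carry both alleles. A further pair of libraries from the same kind of mice held cells positive for the Fgd5 reporter and enters none of the comparisons below. The labels do not say whether the libraries came from separate mice or from separate loadings, so that p-values measure only the spread between these libraries.

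Dendritic cells take up antigen and present it to T cells on MHC class II molecules. They arise from Flt3-expressing marrow progenitors with high Irf8, and divide into conventional cells of type 1, which depend on Batf3 and Id2 and cross-present antigen, conventional cells of type 2, which depend more on Irf4 and Klf4, and plasmacytoid cells, which depend on Tcf4 and secrete type I interferon. Class II genes are switched on by the transactivator Ciita, which docks on the factors RFX, CREB and NF-Y bound to a conserved promoter module.

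The 3 libraries, called a, b and c, held 1339, 4095 and 6147 cells and 10000606, 18683092 and 36080242 UMIs. Dendritic-gated cells made up 59 of the cells in library a, or 4.41% (95% Wilson interval 3.43% to 5.64%). In library b they were 176 cells or 4.30% (3.72% to 4.96%), and in library c 261 cells or 4.25% (3.77% to 4.78%). The share was thus nearly the same in the 3 libraries, with a mean of 4.32% ± 0.0818 (SD, n = 3). These intervals cover counting error only. Dendritic-gated cells were shallower than the other Lin-kit+ cells, with a median of 4707, 2455 and 3440 UMIs per cell against 6742, 4519 and 5615.5. At an equal depth of 2000 UMIs they showed slightly more genes per cell, with medians of 922, 922 and 918 against 865, 867 and 872. Scrublet called 8 of the 496 cells doublets (1.61%) and 115 of the 11085 others (1.04%), and 4 of the 496 carried a barcode that also occurred in another library.

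Of the 5 genes that mark the cells, 4 stood far above the other Lin-kit+ cells, and Siglech was detected in few cells. H2-Aa, the alpha chain of the class II molecule I-A, was at 5714, 5659 and 5013 CPM (UMIs per 1000000 UMIs of the class) in dendritic-gated cells and at 9.89, 14.1 and 17.1 in the others. Irf8, the transcription factor on which dendritic development rests, was at 2431, 2642 and 2234 against 382, 348 and 345. Siglech, a surface lectin of plasmacytoid cells, had a UMI in 24 of the 496 cells (4.84%) and in 0.604% of the others, at median depths of 3194.5 and 5245 UMIs. After thinning every cell to 2000 UMIs the shares for Siglech were 4.74% and 0.343%. The levels of H2-Aa, Irf8 and Siglech follow from the rule and do not check the name. Cd74 and Cst3 are not in the rule and are given with the groups they belong to. Cd74 accompanies the class II genes of the rule, so that it is no separate check of the name.

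The gate was passed mainly through the class II chains. All of H2-Aa, H2-Ab1 and H2-Eb1 were detected without Siglech or Cd209a in 344 cells (69.4%), together with Cd209a in 53 cells (10.7%), and H2-Aa with H2-Ab1 alone in 49 cells (9.88%). Cd209a, a lectin receptor known as DC-SIGN, had a UMI in 13.3% of dendritic-gated cells and in 0.352% of the others. Among the other cells, H2-Ab1 was at 29.5, 33.4 and 35.7 CPM, and H2-Aa had a UMI in 2.41% of them. Low class II counts therefore occur outside the gate as well, and cells near its edge are described on their own further on.

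The promoters of class II genes are shown here because the class II genes carried the gate and moved as a group. The Y box core, to which NF-Y binds, was searched as GATTGG on both strands of RefSeq windows from 250 bases before to 50 bases after each start on GRCm38.p6. It occurred in 9 of 12 class II genes with a window, out of 16 looked up, and in 5292 of 32851 windows of all genes (16.1%). A gene was counted when any of its windows matched, and the 12 genes held 14 windows. The count of genes and the share of windows are therefore unlike measures. Among the 9 were Rfx5 and Rfxank, which were not called in the comparison below. The ETS-IRF composite, GGAA and GAAA spaced by 2 bases, searched in the same way, occurred in 0 of those 12 genes and in 892 of all windows (2.72%). The 120 bases before the start are printed 5′ to 3′ on the strand of the gene, with matches to the Y box core in capitals. They lie at chr17:34287824-34287943 on the minus strand for H2-Aa, and on the plus strand at chr17:34305747-34305866 for H2-Eb1, chr17:34153071-34153190 for H2-DMb1 and chr17:34092259-34092378 for H2-Oa.
H2-Aa: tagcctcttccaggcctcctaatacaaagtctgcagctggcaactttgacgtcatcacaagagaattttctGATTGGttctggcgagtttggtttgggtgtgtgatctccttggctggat
H2-Eb1: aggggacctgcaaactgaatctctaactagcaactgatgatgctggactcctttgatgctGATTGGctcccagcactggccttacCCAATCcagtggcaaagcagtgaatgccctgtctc
H2-DMb1: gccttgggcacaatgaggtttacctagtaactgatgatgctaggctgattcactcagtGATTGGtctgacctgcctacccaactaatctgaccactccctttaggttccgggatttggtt
H2-Oa: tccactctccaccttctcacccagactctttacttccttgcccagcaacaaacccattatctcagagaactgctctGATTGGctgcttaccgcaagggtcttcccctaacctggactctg
The first base of the match lay 49 bases before the start in H2-Aa, 60 in H2-Eb1, 62 in H2-DMb1 and 44 in H2-Oa. H2-Eb1 held another match on the opposite strand. A match is a run of letters and not a measured binding site.

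To ask what else distinguished dendritic-gated cells, UMI counts were summed per library over these cells and over all other Lin-kit+ cells and compared with the edgeR quasi-likelihood test, with the library as a block. A gene was called when its Benjamini-Hochberg adjusted p was under 0.05 and it differed at least 2-fold. Of 10175 genes tested, 897 were higher (8.82%) and 824 lower (8.10%), and 33.6% passed the adjusted p at any fold. List counts given below for this comparison stand beside these shares, and counts near them are not read as a trait of the list. With library totals in place of TMM factors, which shift all differences by 0.15 on the log2 scale, 1090 were higher and 666 lower. The cells were chosen by transcripts, so genes that go with the gate genes from cell to cell differ through that choice. Genes too rare to test except where they are high could also only come out higher.

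The machinery of class II presentation was higher as a group. Cd74, the invariant chain that escorts class II molecules, was at 11991, 12150.4 and 10684 CPM in dendritic-gated cells and at 40.8, 39.9 and 50.8 in the others. Ciita, the class II transactivator, was at 37.3, 31.1 and 25.4 against 0.103, 0.165 and 0.2. The groups of libraries stood far apart for both genes, with log2 differences of 7.89 ± 0.10 (SE; adjusted p = 5.01e-306, edgeR) for Cd74 and 7.14 ± 0.42 (adjusted p = 8.23e-51) for Ciita. H2-DMa encodes a chain of the peptide exchanger H2-DM and was at 856, 799 and 766 against 148, 135 and 149, a log2 difference of 2.33 ± 0.09 (adjusted p = 1.21e-98). H2-DMb1, which encodes its other chain and shares sequence with its neighbour H2-DMb2, differed by 3.88 ± 0.10. The H2-DO chains H2-Oa and H2-Ob, which restrain H2-DM, were higher by 2.69 ± 0.17 and 2.47 ± 0.22 on the log2 scale, so that exchanger and inhibitor were higher together.

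Of the 14 genes in the class II list without the gate genes, 11 were called higher and none lower, with a median log2 difference of 2.74 against -0.06 over all genes tested. Besides those named, the called genes were the endosomal proteases Ctss and Lgmn, the thiol reductase Ifi30, the ubiquitin ligase March1 that turns over class II molecules, and H2-DMb2. The 3 subunits of RFX, which bind the class II promoter module in every cell type, did not pass. Their log2 differences were -0.08 ± 0.53 for Rfx5 (adjusted p = 0.94), -1.58 ± 0.92 for Rfxap (adjusted p = 0.186) and 0.80 ± 0.37 for Rfxank (adjusted p = 0.0856), on 9, 2 and 23 UMIs in dendritic-gated cells. Such counts left these subunits unsettled. Rfxank passed the call after thinning (1.33), and Rfxap, on 2 UMIs that both lay in library b, passed without that library. Class I presentation moved less, with 4 of 13 genes higher and none lower (median 0.32). The called genes were the peptide transporter subunit Tap1 (1.38 ± 0.12), its partner Tapbp (1.41 ± 0.11) and the immunoproteasome subunits Psmb8 (1.22 ± 0.08) and Psmb9.

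**Figure D1:**
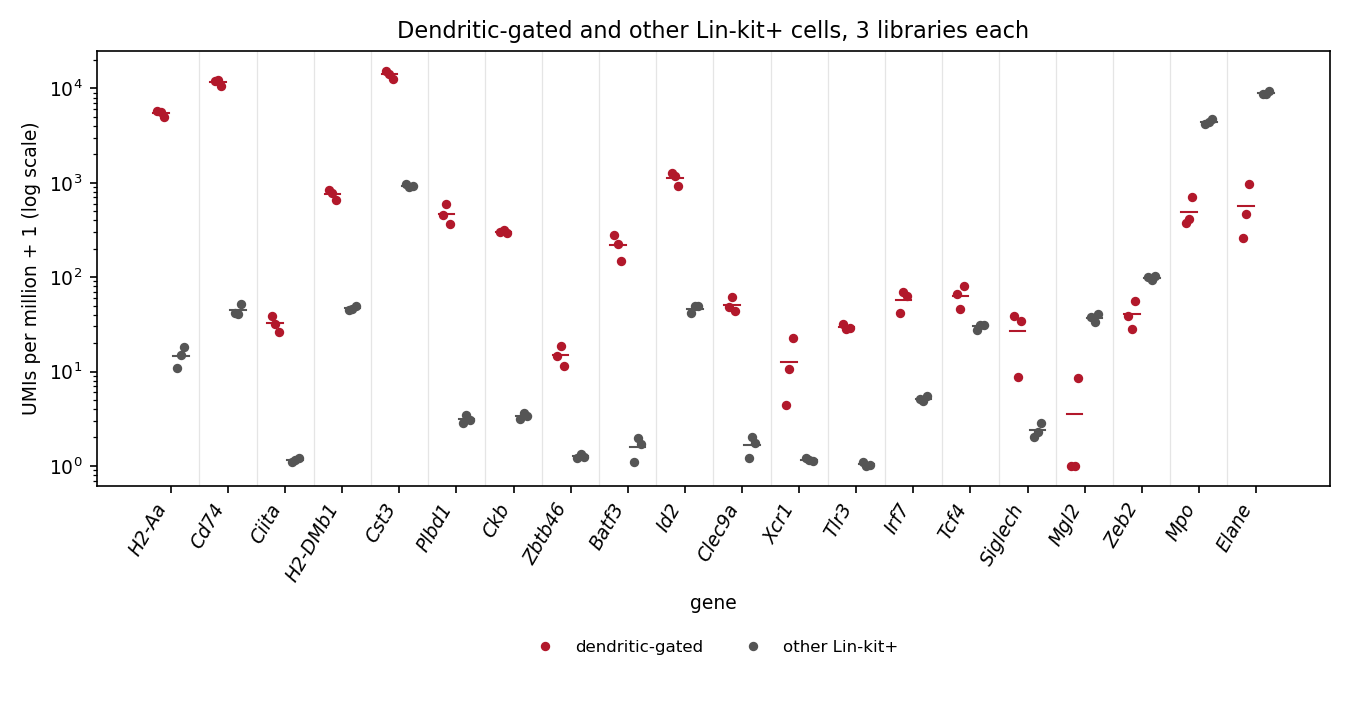
CPM plus 1 (log axis) of 20 genes in dendritic-gated cells and other Lin-kit+ cells, with 1 point per library and a bar at the mean of 3 libraries. Cd74, Batf3 and Cst3 lie far above the other cells in all 3 libraries, Mpo and Elane far below, and Siglech varies more between libraries than the class II genes.

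Genes of type 1 conventional dendritic cells were higher wherever they could be tested. The rule asks for Irf8 and class II genes, so genes that go with these stand higher through that choice, here and in the comparisons below. Genes near the floor in the other cells, such as Batf3, Xcr1 and Tlr3, could only come out higher. Of 16 genes 13 could be tested, and all 13 were higher (median log2 difference 5.92). Cadm1, Itgae and Cd36 were too rare to test, and Itgae had no UMI in dendritic-gated cells. Batf3, the factor that type 1 cells depend on, was at 282, 222 and 148 CPM against 0.103, 0.991 and 0.714, a log2 difference of 7.94 ± 0.20 (adjusted p = 2.98e-164, edgeR). Id2, which antagonises E proteins such as Tcf4, was at 1256, 1170.3 and 926 against 40.4, 47.9 and 48.2, a difference of 4.43 ± 0.09 (adjusted p = 5.08e-198). Both factors were thus clearly separated from the other cells in every library.

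The surface receptors of mature type 1 cells were present at low levels. Clec9a, a receptor for dead cells, was at 47.5, 60.3 and 42.3 CPM against 0.206, 1.05 and 0.742, a log2 difference of 5.86 ± 0.30 (adjusted p = 1.28e-62, edgeR). Xcr1, the chemokine receptor that marks mature type 1 cells, was at 3.39, 9.72 and 21.6 against 0.206, 0.165 and 0.114, on 29 UMIs in all. Levels of Xcr1 differed widely between the libraries, and those of Clec9a did not. Tlr3, an endosomal sensor of double-stranded RNA, had 53 UMIs in dendritic-gated cells, at 30.6, 27.2 and 28.2 CPM, and 2 UMIs in the 11085 others. The interferon-inducible gene Ifi205, at 265, 352 and 338 CPM, differed by 7.43 ± 0.14, and the lysosomal amidase Naaa by 4.91 ± 0.11 on the log2 scale.

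Genes shared by dendritic cells followed, with 16 of 19 higher, none lower and a median of 3.09. Cst3, which encodes the protease inhibitor cystatin C, was at 15467, 14324 and 12499.6 CPM against 959.9, 896 and 926, a log2 difference of 3.77 ± 0.08 (adjusted p = 2.86e-191, edgeR). Zbtb46, a factor largely restricted to conventional dendritic cells among leukocytes, was at 13.6, 17.5 and 10.4 against 0.206, 0.33 and 0.257, a difference of 5.38 ± 0.52 on 24 UMIs. Flt3, the receptor of the cytokine that drives dendritic development, was at 74.7, 71.9 and 53.6 against 16.5, 16.3 and 12.3, a difference of 2.0 ± 0.19 (adjusted p = 4.28e-23). All 3 genes were higher in each library. Plbd1 (7.56 ± 0.12) and the creatine kinase Ckb (6.82 ± 0.14) had larger log2 differences, from lower levels in the other cells. Ccr7, the receptor that guides mature dendritic cells to lymph nodes, Rogdi and Bcl11a did not pass the call.

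Plasmacytoid genes were mixed. Of 18 tested, 8 were higher and 2 lower, with a median of 0.82, and Ccr9, Cd300c, Pacsin1, Lag3 and Cd8a were too rare to test. The summed list was lower, at 4678, 4442 and 5131 CPM against 5900, 5692 and 5962. Plac8 was not called, but passed as lower with 3 of the 5 genes required (-1.12), after thinning (-1.13) and with at least 10 class II UMIs (-1.14). Of the higher genes, Ly6d (-0.10) and Cox6a2 (-0.23) changed sign with at least 10 class II UMIs. The call of Cox6a2 was also lost after thinning (0.34) and without library c (1.06). The lower ones were Atp1b1, a call lost without any one of the libraries, and Lair1, a call lost without library c (-0.97) and against cells that pass the exclusions (-0.67). Irf7, the interferon regulatory factor that drives type I interferon genes, was at 40.7, 68 and 62.1 CPM against 4.12, 3.85 and 4.54, a log2 difference of 3.67 ± 0.23 (adjusted p = 2.78e-45, edgeR). Tcf4, the E protein that specifies plasmacytoid cells, was at 64.5, 44.7 and 79 against 26.8, 30.1 and 30.4, a difference of 1.01 ± 0.16 (adjusted p = 1.22e-08). Tcf4 lay just past the 2-fold line, and it fell short of it under 7 of the alternatives, down to 0.72 without library c. Spib (4.48 ± 0.70) rested on 10 UMIs, while Rnase6 (4.65 ± 0.11) and Upb1 (5.17 ± 0.18) were well measured. Bst2, a tetherin that plasmacytoid cells carry at high levels, was at 299, 284 and 246 against 125, 125 and 127, a difference of 0.96 ± 0.11 that did not reach 2-fold, though it did under 4 of the alternatives, up to 1.11 with library totals.

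Genes of type 2 conventional cells moved both ways, with 4 higher and 4 lower of 15 tested and a median of -0.10. Ccr2, a chemokine receptor also used by monocytes, was at 489, 439 and 404 CPM against 50.6, 46.7 and 45.1, a log2 difference of 3.07 ± 0.10 (adjusted p = 1.86e-117, edgeR). Klf4, which a subset of type 2 cells requires, differed by 2.02 ± 0.19, and Klrd1, a lectin-like receptor chain of natural killer cells, by 3.41 ± 0.34. Cd209d (4.82 ± 0.72) rested on 10 UMIs. The lectin Mgl2, at 0, 0 and 7.53 against 36.5, 32.7 and 39.8, was lower by -3.28 ± 0.35 on 8 UMIs, all in library c, so that libraries a and b had none. Sirpa, the inhibitory receptor that usually marks type 2 cells, was at 3.39, 1.94 and 5.65 against 18.3, 20.1 and 15.5 (-2.15 ± 0.42, and -3.11 without library c), and Csf1r differed by -1.75 ± 0.34. Clec4a2 differed by -2.52 ± 0.16, but by -0.52, short of the call, when the comparison cells had to pass the same exclusions on Cd79a, S100a8, S100a9 and Ltf. Irf4 and Clec4a4 were too rare to test.

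**Figure D2:**
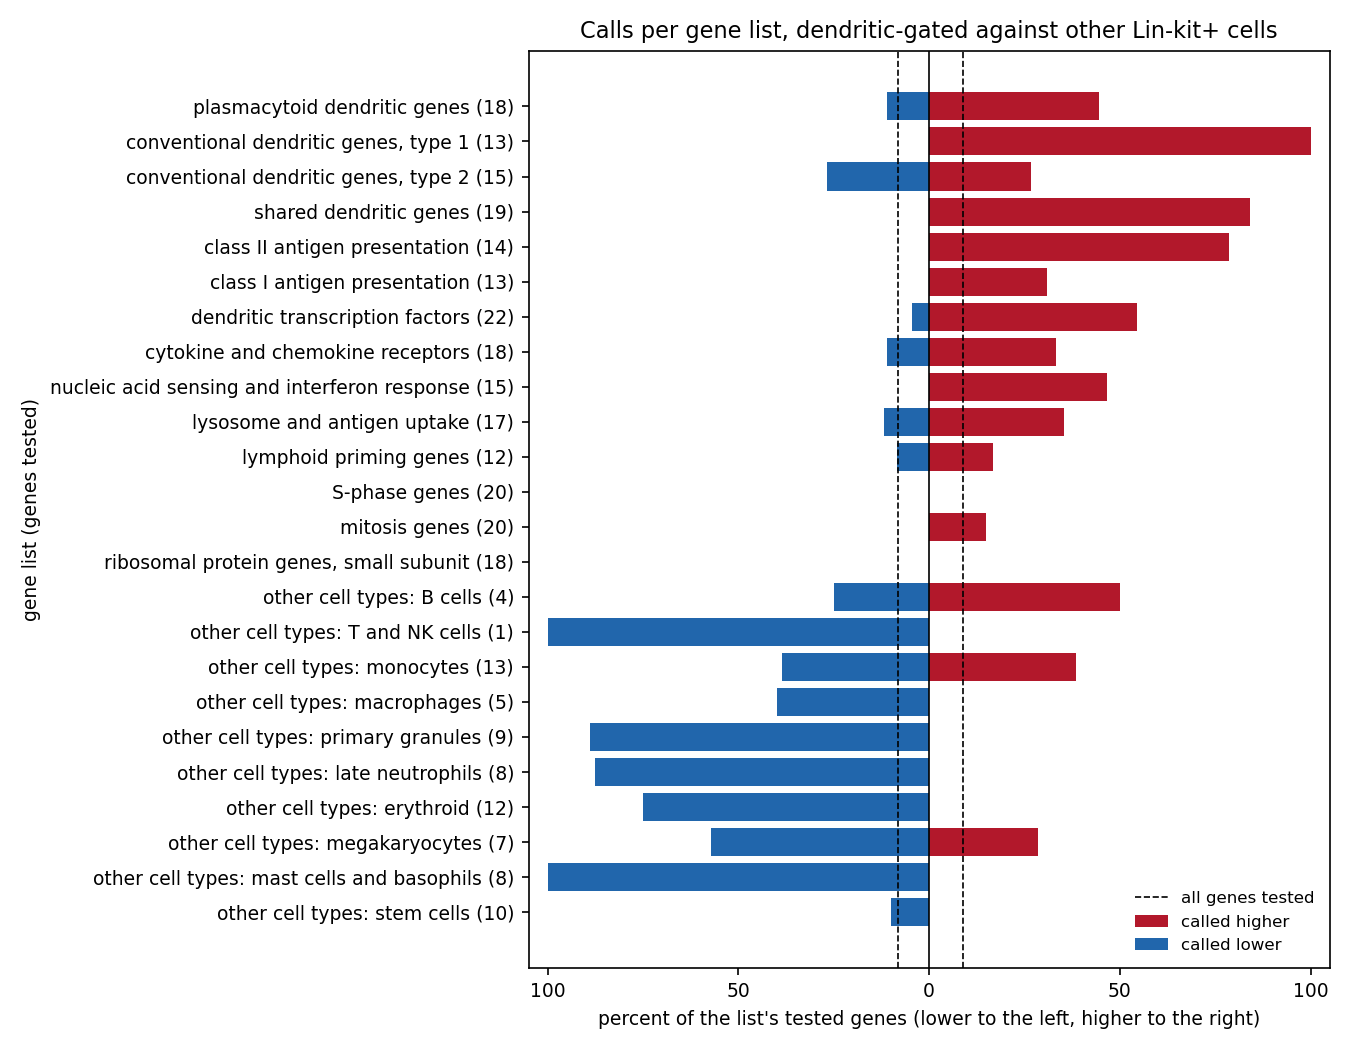
Percent of the tested genes of each of 24 lists that were called higher (to the right) or lower (to the left) in dendritic-gated cells than in other Lin-kit+ cells, with the number tested in brackets and dashed lines at the shares over all genes tested (8.82% and 8.10%). Type 1, shared dendritic and class II lists were called higher for most of their genes, and granule, mast cell and erythroid lists lower.

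Among 22 dendritic transcription factors tested, 12 were higher and 1 lower (median 1.41). Mycl, which supports the expansion of type 1 cells, was at 30.6, 33 and 23.5 CPM against 0.618, 0.605 and 0.485 (log2 difference 5.49 ± 0.38), and Nfkb1 at 333, 266 and 232 against 53.1, 53.8 and 52 (2.18 ± 0.10). Runx2, which plasmacytoid cells use to leave the marrow, differed by 1.76 ± 0.20. Zeb2, a repressor associated with the plasmacytoid, type 2 and monocyte fates, was the factor called lower, at 37.3, 27.2 and 54.6 against 98.7, 93.1 and 102 (-1.33 ± 0.15, adjusted p = 8.37e-16, edgeR). Spi1, which encodes PU.1, was at 241, 93.3 and 48 against 124, 40.8 and 23, and its levels differed among the libraries alike in both classes. Its difference of 0.90 ± 0.13, measured within libraries, did not reach 2-fold, but it did under 6 of the alternatives, up to 1.26 after thinning.

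Of 18 receptors tested, 6 were higher, 2 lower and 10 not called (median 0.47). The higher ones were Flt3, Ccr2, Cxcr3, Ifnar1, Il6ra and Tnfrsf13b. Beside Flt3 and Ccr2, the chemokine receptor Cxcr3 was at 30.6, 31.1 and 19.8 CPM against 0.103, 0.165 and 0.257, a log2 difference of 6.68 ± 0.43 (adjusted p = 2.33e-43, edgeR) that was 7.45 without library c. Csf3r, the receptor of the granulocyte growth factor, was at 3.39, 1.94 and 4.7 against 26.8, 24.6 and 22.4 (-2.80 ± 0.40, and -3.49 without library c). Kit, whose protein was used to sort all of these cells, was at 30.6, 31.1 and 32.9 against 28, 30.3 and 27, a difference of 0.05 ± 0.20 (adjusted p = 0.898) that stayed within the spread between libraries. Dendritic-gated cells therefore held Kit transcripts at a level not distinguishable from the rest of the sort.

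Genes of nucleic acid sensing were higher in 7 of 15 cases and lower in none (median 0.96). Irf5, which acts downstream of endosomal Toll-like receptors, was at 258, 179 and 202 CPM against 17.3, 14.9 and 15.7, a log2 difference of 3.56 ± 0.13 (adjusted p = 3.02e-110, edgeR). Unc93b1, which carries those receptors to endosomes, differed by 1.55 ± 0.10, and Stat2, a mediator of type I interferon signals, by 2.18 ± 0.33. The interferon-stimulated gene Isg15, at 10.2, 23.3 and 21.6 against 13, 11.9 and 11.2, did not pass (adjusted p = 0.0692). Lysosomal genes were split, with 6 of 17 higher and 2 lower (median 0.82). Psap, a precursor of sphingolipid activator proteins, was at 3487, 3355 and 2892 against 359.8, 328 and 339 (3.09 ± 0.08), and the galectin Lgals3 differed by 3.61 ± 0.09. The protease gene Ctsd was at 17, 35 and 55.5 against 164, 145 and 159 (-2.03 ± 0.16), so that cathepsin D went the other way from cathepsin S.

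Mitosis genes stood higher in sum and S-phase genes lower. Of 20 mitosis genes 3 were higher and none lower (median 0.71), beside 8.82% higher over all genes tested. These were Ube2c (1.44 ± 0.10), Nusap1 (1.33 ± 0.11) and Cenpf (1.22 ± 0.12). Of 20 S-phase genes none was called in either direction (median -0.42), and of 18 ribosomal protein genes none (median -0.40). The summed level of mitosis genes was 4169, 2924 and 3566 CPM against 1957, 1968 and 2153, and that of S-phase genes 1769, 2041 and 2293 against 2570.4, 2636 and 2542. Both sums are CPM without TMM factors and carry no test. The S-phase median of -0.42 lay near the -0.40 of the ribosomal protein genes, so no change particular to S-phase genes is read from it.

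Markers of other cell types were mostly lower. Primary granule genes were lower in 8 of 9 cases, and Elane, the neutrophil elastase, was at 261, 467 and 971 CPM against 8642, 8669 and 9374 (log2 difference -4.13 ± 0.10, adjusted p = 8.44e-181, edgeR). Mpo, the myeloperoxidase of early granulocyte and monocyte progenitors, was at 370.0, 408 and 697 against 4237, 4397 and 4685 (-3.31 ± 0.09). Both genes were therefore far lower yet not absent, and highest in library c. Late neutrophil genes were lower in 7 of 8 cases, a direction that the exclusion of cells rich in S100a8, S100a9 and Ltf fixes in part. Mast cell and basophil genes were lower in 8 of 8 cases (Cpa3, -5.27 ± 0.28, and -6.54 without library c), erythroid genes in 9 of 12 (Car1, -3.56 ± 0.17, and -4.28 without library b), macrophage genes in 2 of 5 and the only T and NK cell gene tested, Nkg7, was lower. Stem cell genes were lower in 1 of 10 cases, near the 8.10% over all genes tested. This was Hoxa9 (-1.10 ± 0.40), a call lost in 3 alternatives. In all, 86 of the 824 lower genes had no UMI in dendritic-gated cells. The 10 named by size were all among them, with 3 counts over the group as the floor of the fold. They were led by the chitinase-like gene Chil1, at least 21.7-fold lower, and the adhesion molecule Vcam1, at least 16.7-fold lower. The other cells include those rich in S100a8, S100a9 and Ltf, which the rule left out of dendritic-gated cells. When comparison cells had to pass the same exclusions, 738 genes were lower, of which 628 were among the 824. Chil1 and Vcam1 were too rare to test against the monocyte and lymphoid gates described below, which use those exclusions.

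Some lists of other lineages held genes that were higher. Monocyte genes were split, with 5 higher and 5 lower of 13 (median 0.05). Ms4a6c, at 815, 799 and 825 CPM against 303, 297 and 319 (log2 difference 1.26 ± 0.08, and 0.97, short of the call, against cells that pass the exclusions), and Ly86, which dendritic and B cells use as well (1.53 ± 0.12), were higher. Ly6c2, the antigen of classical monocytes, was at 88.3, 432 and 366 against 2128, 2099 and 2103 (-2.91 ± 0.10), and F13a1 differed by -2.07 ± 0.15. Of 7 megakaryocyte genes, Plek (2.21 ± 0.16), which leukocytes also express, and Vwf (1.99 ± 0.49, on 16 UMIs, and 2.59 without library c) were higher, while 4 were lower, including Pf4 (-4.05 ± 0.24), whose 13 UMIs all lay in library c. Of 4 B cell genes tested, Cd22 and Fcrla were higher and Vpreb1 was lower, and Ms4a1, Vpreb2, Vpreb3 and Rag1 had no UMI. The summed B cell list was on average 66.2 CPM in dendritic-gated cells and 48.1 in the others. The part of other cell types in these differences was not tested.

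Lymphoid priming genes were higher in 2 of 12 cases and lower in 1 (median 0.43), beside 8.82% and 8.10% over all genes tested. Nothing is read from these counts about the list. Cd7, a receptor of early lymphoid cells, was at 47.5, 50.5 and 75.3 CPM against 2.68, 3.63 and 2.43 (log2 difference 4.35 ± 0.24, adjusted p = 3.57e-58, edgeR). Ly6d, an antigen of lymphoid progenitors and plasmacytoid precursors, was at 13.6, 40.8 and 68.7 against 14.4, 11.7 and 8.85 (2.1 ± 0.22). The groups overlapped for Ly6d in library a, and the difference was 1.13 without library c and -0.10 when cells with under 10 class II UMIs were left out. Dntt, the terminal transferase of lymphoid progenitors, was at 146, 91.4 and 121 against 56, 80 and 67 (0.63 ± 0.12) and was not called. Without the cells under 10 class II UMIs it was lower by -2.86, so that its sign depended on those cells.

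The number of class II transcripts varied widely among the cells. The summed UMIs of H2-Aa, H2-Ab1 and H2-Eb1 ran from 0 to 239 per cell, with a pooled median of 41.5 and medians of 56, 39 and 42 in libraries a, b and c. Of the 496 cells, 88 held under 10, 202 held 10 to 49 and 206 held 50 or more. The 88 low cells were 6, 30 and 52 in the 3 libraries, and 49 of them held at most 2. The rule lets in cells with 2 class II UMIs or fewer, so that the low cells lie in part at its edge. Counts ran on from them into a broad main group. The low cells were not shallow, with a median of 4910.5 UMIs per cell against 2692.5 and 3352.5 in the 2 higher ranges. Since class II counts rise with depth and were used by the rule, the following levels are given with no test.

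**Figure D3:**
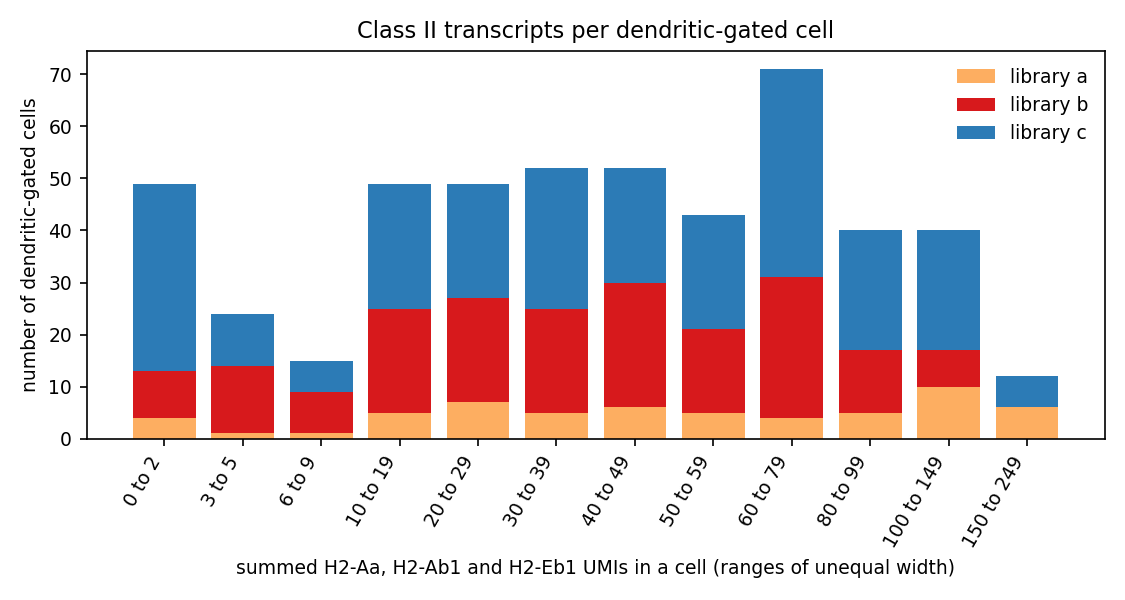
Number of dendritic-gated cells by the summed H2-Aa, H2-Ab1 and H2-Eb1 UMIs of the cell, in ranges of unequal width, stacked by library. Cells with 0 to 2 class II UMIs lie at the edge set by the rule, and most cells hold 10 or more.

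Cells with few class II transcripts carried another set of genes. Pooled over libraries, Cd74 was at 475 CPM in cells under 10 class II UMIs, at 9097 in those with 10 to 49 and at 19772 in those with 50 or more. Id2 was at 192, 1114 and 1512 in the same order, Batf3 at 36.2, 237 and 243, and Cst3 at 3888, 15180.2 and 17922. Batf3 was thus alike in the middle and upper range, whereas Naaa went from 36.2 over 258 to 687. Irf8 was at 1364, 2868 and 2589, and Flt3 at 81, 47 and 62.8, with no order across the ranges. Xcr1 was found only among cells with 50 or more, with 29 UMIs there and 0 in both lower ranges.

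Lymphoid and early myeloid transcripts ran the other way. Dntt was at 437, 15.7 and 5.24 CPM in the 3 ranges, on 205, 10 and 4 UMIs. Ly6d was at 177, 14.1 and 7.85, Siglech at 85.2, 6.27 and 7.85, and Cd34, an antigen of immature progenitors, at 251, 34.5 and 19.6. Nearly all Dntt and most Siglech transcripts of dendritic-gated cells therefore lay in the 88 cells with few class II transcripts, which for Siglech the gate fixes in part. Mpo was at 1308, 503 and 164, and Elane at 1611, 709.7 and 183. Kit, at 27.7, 42.3 and 26.2, had no order across the ranges. The 66 cells with Cd209a had no UMI of Dntt or Ly6d, while cells without it were at 135 and 60.3 CPM for these genes, and Zbtb46 was at 28.4 and 10.5.

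**Figure D4:**
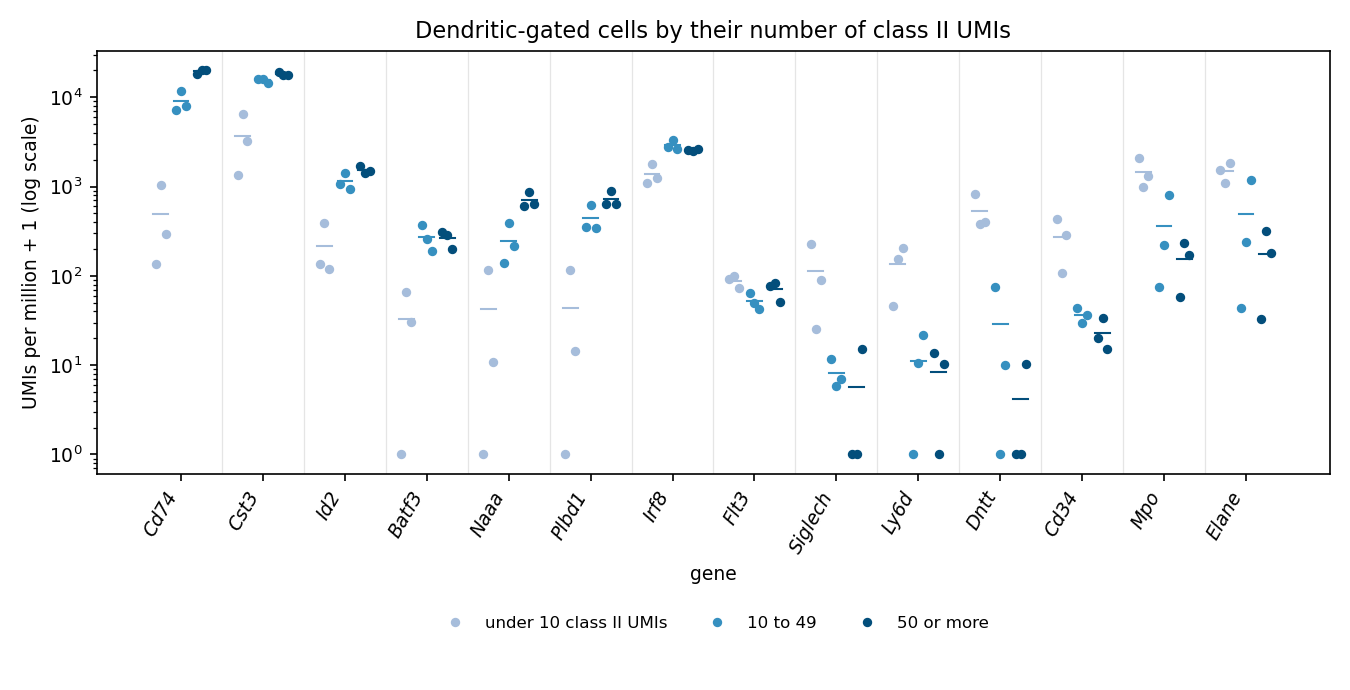
CPM plus 1 (log axis) of 14 genes in dendritic-gated cells with under 10, 10 to 49 and 50 or more class II UMIs, with 1 point per library and a bar at the mean of 3 libraries. Cd74, Cst3, Id2 and Naaa lie higher with more class II UMIs, and Dntt, Ly6d, Cd34 and Mpo lower.

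At the edge of the gate, 35 cells held exactly 2 of the 5 genes with 1 UMI each. These cells were at 79.5 CPM for Cd74, 13.3 for Batf3, 1904 for Mpo, 287 for Dntt and 906 for Irf8. Just outside, 598 cells held only 1 of the 5 genes and were at 12.3 for Cd74, 3.69 for Batf3, 3990.2 for Mpo, 299 for Dntt and 836 for Irf8. The cells just inside and just outside had like levels of Dntt and Irf8. Cd74 and Batf3 were higher just inside and Mpo was lower. In both sets Cd74 and Batf3 stood far below the dendritic-gated cells as a whole. Another 123 cells met the rule except for Irf8 and were at 2893 for Cd74, and 7 failed an exclusion only.

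The 24 cells with Siglech, 3, 4 and 17 in the libraries, were set beside the 472 without it, 56, 172 and 244. Cells without Siglech could enter the gate only through class II genes or Cd209a, and the median number of class II UMIs was 1.5 in cells with Siglech and 44.5 in those without. The rule thus bears on this split, so its values are a description, and the counts of the fit below are no test of it. By the same fit as before, 17 of 2290 genes were higher (0.742%) and 36 lower (1.57%), with 2.66% past the adjusted p at any fold, and nothing is read from these counts. They fell to 3 and 7 without library c and to 7 and 23 without library a.

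In cells with Siglech, Bcl2, which protects from apoptosis, was at 528, 160.0 and 399 CPM against 47.2, 39.8 and 51.3 in cells without it. Runx2 was at 422, 320.0 and 148 against 54.4, 31.9 and 39. Both genes were above the cells without Siglech in every library, on 47 UMIs of Bcl2 and 25 of Runx2 in all cells with Siglech. Tcf4 was at 211, 80 and 159.6 against 54.4, 43.8 and 71.8, and Dntt at 1584, 0 and 228 against 47.2, 93.6 and 112. With only 4 such cells in library b, the Dntt count of 0 there gives no direction. Cd74, which accompanies the class II genes, was at 1743, 4320.0 and 1755 against 12695, 12345 and 11487. The lysozyme gene Lyz2, picked in the same way, was at 52.8, 80 and 125 against 784, 809 and 692, on 13 UMIs in cells with Siglech.

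Monocyte progenitors are close neighbours of dendritic progenitors, and both express Irf8. A monocyte gate, at least 2 of F13a1, Ccr2, Ms4a6c and Csf1r with the same exclusions, held 3299 other Lin-kit+ cells. Cells that also met the lymphoid gate described below were left out of both gates. Of 8491 genes tested, 856 were higher in dendritic-gated cells (10.1%) and 541 lower (6.37%), with 37.5% past the adjusted p at any fold. Id2 was at 7.86, 13 and 10.3 CPM in the monocyte gate, a log2 difference of 6.60 ± 0.10 (adjusted p = 1.72e-111, edgeR), beside the 4.43 against all other cells. Zeb2 was at 152, 158 and 168 there (-1.95 ± 0.15), and Ly6c2 at 3065, 3139.5 and 3086 (-3.36 ± 0.10). Id2 and Zeb2 thus separated the classes in opposite directions in all 3 libraries.

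Of the lists, all 11 type 1 genes tested were higher than in the monocyte gate (median 6.60), as were 12 of 13 class II genes (Rfxank among them, at 1.22 ± 0.39), 16 of 18 shared dendritic genes and 9 of 16 plasmacytoid genes, of which 2 were lower. None of 9 monocyte genes was higher and 4 were lower, a direction that follows in part from a gate picked on monocyte genes. Cells that met both gates were left out, so Dntt and Flt3 stand low in the monocyte gate in part by construction. Dntt was at 0.254, 5.46 and 4.37 in the monocyte gate (4.86 ± 0.22), and this difference was 1.36 when only cells with at least 10 class II UMIs were kept. Ly6d (5.98 ± 0.37) went to 3.77 in the same way, and to 7.44 without library a and 4.62 without library c. Cd7 differed by 4.55 ± 0.27. Klf4, at 34.2, 34.8 and 35.4 in the monocyte gate, did not reach 2-fold (0.81 ± 0.17). The phospholipid receptor Trem2 had 3 UMIs in dendritic-gated cells, all in library c, and was 24.3-fold lower (counting interval 8.28 to 118).

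**Figure D5:**
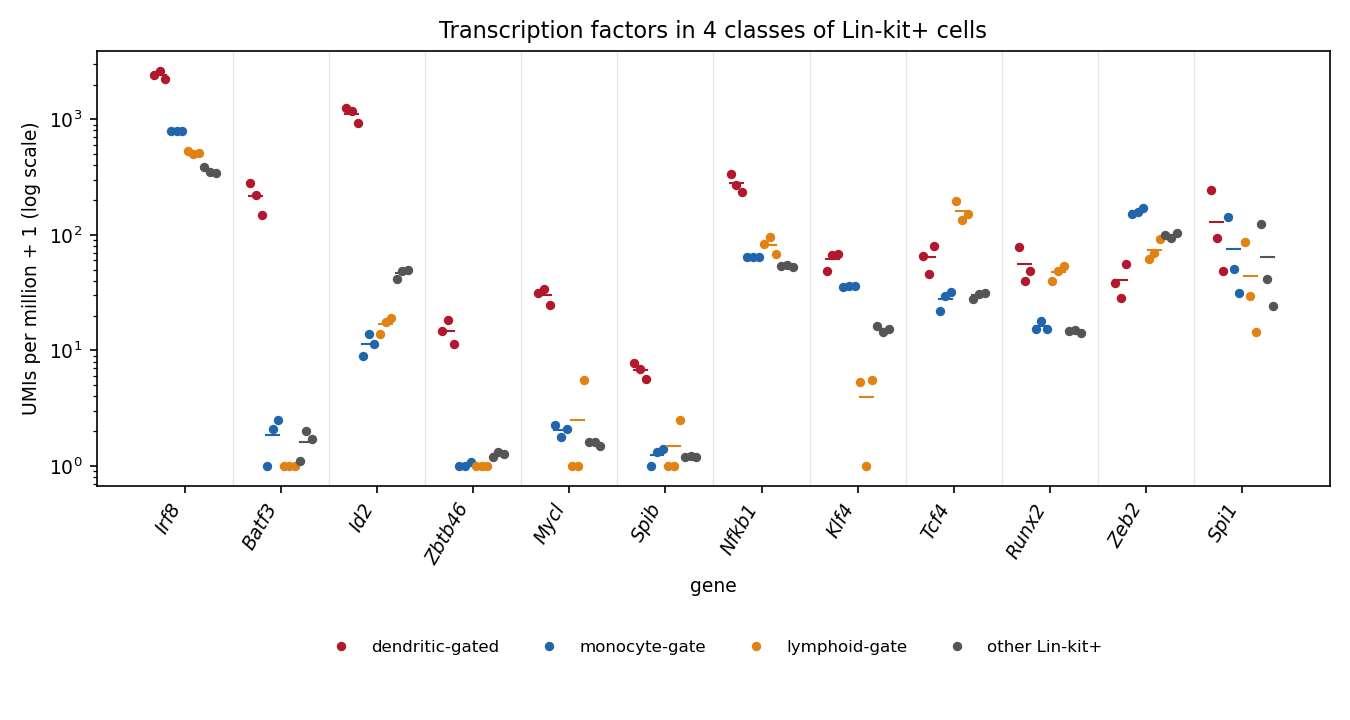
CPM plus 1 (log axis) of 12 transcription factors in dendritic-gated cells, monocyte-gate cells, lymphoid-gate cells and all other Lin-kit+ cells, with 1 point per library and a bar at the mean of 3 libraries. Batf3, Id2, Zbtb46 and Mycl lie above all other classes in dendritic-gated cells, Tcf4 is highest in the lymphoid gate and Zeb2 in the monocyte gate.

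A lymphoid gate, at least 2 of Flt3, Dntt and Il7r with the same exclusions and without cells that met the monocyte gate, held 288 cells. Of 4593 genes tested, 509 were higher in dendritic-gated cells (11.1%) and 318 lower (6.92%), with 38.9% past the adjusted p at any fold. Batf3, Plbd1 and Ifi205 had no UMI in the lymphoid gate and were at least 83.3-fold, 195-fold and 145-fold higher. Ccr2, at 4.32, 7.07 and 1.5 CPM in the lymphoid gate, differed by 6.75 ± 0.25 on the log2 scale (7.47 without library b). All 5 monocyte genes tested were higher. Cells that met both gates were left out, so Ccr2 and Ms4a6c among these 5 are low here in part by construction. Cd34, at 484, 457 and 458 there (-2.50 ± 0.14), and Meis1 (-1.81 ± 0.27) were lower, as were all 4 stem cell genes tested. Primary granule genes were split, with 2 higher and 2 lower of 8, and Mpo, Prtn3 and Ctsg were not called. Of 19 mitosis genes 7 were higher than in the lymphoid gate and none lower.

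Tcf4 changed sides between the neighbours. It was at 194, 132 and 152 CPM in the lymphoid gate, higher than in dendritic-gated cells (log2 difference -1.21 ± 0.18, adjusted p = 7.74e-07, edgeR), and at 20.8, 28.3 and 30.8 in the monocyte gate, lower than in them (1.18 ± 0.18, adjusted p = 4.63e-09). The latter call was lost without library c, at 1.0. Of 8 lymphoid priming genes 6 were lower than in the lymphoid gate, including the B cell linker Blnk (-3.61 ± 0.37, and -4.63 without library c), Satb1 (-2.45 ± 0.25) and Ly6d (-1.58 ± 0.23, and -2.44 without library c), and 1, Cd7, was higher (3.16 ± 0.37). The lymphoid gate picked cells by Flt3, Dntt and Il7r, so that lymphoid genes stand high in it in part through that choice. Of 12 plasmacytoid genes 3 were higher and 4 lower, while all 10 type 1 genes were higher (median 7.03), along with 9 of 11 class II genes. Cd7 was thus higher than in both neighbouring gates. These 3 comparisons share the dendritic-gated cells, so that their values stand side by side and do not add up to separate evidence.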

How the data were processed

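Bone marrow cells were measured with the Chromium system, and the authors deposited 1 table of UMI counts for 12893 cells and 15287 genes, not normalized. Per the labels' processing notes, Cell Ranger 1.3 and 2.1, Seurat 2.3.4 and build mm10 were used. Barcode suffixes name no sample. The suffixes with 793 and 519 cells were taken as reporter-positive by their cell numbers and the other 3 as Lin-kit+, and the links of libraries a, b and c to single samples are not given in the sources used here. For the reporter-positive samples, title and source disagree on the HSC gate.

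All cells were kept. The members, gates and gene lists were chosen with earlier results of these data known. Cells that met both the monocyte and the lymphoid gate were in neither. Counts summed per library and class were tested with edgeR 4.0.16 (R 4.3.3, TMM, filterByExpr, quasi-likelihood, Benjamini-Hochberg over all genes tested), leaving out the genes of the rule and of the gate compared. Both sums of a pair come from 1 library, hence the block. Ighm, meant for the lymphoid gate, has no row in the table and was not used. Named genes were the 15 highest and 10 lowest by log2 difference among calls with at least 100 UMIs (30 among members) and 1 direction in 3 libraries, and listed genes. Levels are UMIs per 1000000 UMIs of the class. Doublets were called with Scrublet (scanpy 1.11.5), and thinning to 2000 UMIs used a fixed seed. DESeq2 1.42.0, scaling, filters, gates and leaving out each library were alternatives. The test of the first comparison was checked on 5 simulated data sets with 200 of 10184 genes changed. At adjusted p under 0.05 it recovered 78.6% of 4-fold and 51.4% of 2-fold changes, with 2.99% false calls. Genes not called may therefore still differ. The simulation chose no cells by transcripts, changed far fewer genes than passed here and set no 2-fold limit. Its share of false calls does not carry over to the calls given here. Promoters are from RefSeq.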

Additional observations from a re-analysis of the deposited data

Results flagged for a closer look

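Cells that met the gate also occurred in the reporter-positive libraries, which enter none of the comparisons. In the library of 793 cells 12 cells met it, a share of 1.51% (95% Wilson interval 0.868% to 2.63%), above the 0.378% that a count of 0 would allow. In the library of 519 cells 5 cells met it, 0.963% (0.412% to 2.24%), above a limit of 0.578%. These 17 cells held a median of 6 class II UMIs (2 to 207), 14 of them held a single Irf8 UMI, and none held a UMI of Siglech, Cd209a, Mpo, Elane or Dntt. With at least 2 Irf8 UMIs required, 2 and 1 cells remained. No explanation for these cells was tested.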

How the results depend on the processing

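The mean share of dendritic-gated cells was 4.32%. It was 3.68% with 3 or more of the 5 genes required, 4.07% with at least 2 Irf8 UMIs, 3.41% after thinning to 2000 UMIs and 3.64% with at least 10 class II UMIs, an alternative added after seeing the data. It stayed between 4.27% and 4.35% without each library in turn. Against all other cells, DESeq2 called 523 genes lower, of which 491 were among the 824. Against the monocyte gate, DESeq2 called 346 lower, and thinning left 489 higher and 321 lower. Against the lymphoid gate, 858 were higher and 536 lower with no filter on low counts, 303 and 144 after thinning, and DESeq2 called 185 lower. For cells with Siglech, 8 were higher with DESeq2, 8 with no filter, 10 with no replicate block, 2 with 3 of the 5 genes required and 5 after thinning, and 3 to 20 without 1 library. The genes lower there were 18 with DESeq2, 10 with 3 of the 5 genes, 10 after thinning, and 7 to 44 without 1 library. Without the replicate block the other counts were 862 and 752, 823 and 504, and 493 and 313. These log2 differences changed sign: for Rfx5 0.064 with library totals, 0.046 with at least 2 Irf8 UMIs, and between -1.25 and 0.25 without 1 library; for Ly6d -0.10 and Cox6a2 -0.23 with at least 10 class II UMIs; for Dntt -0.49 with 3 of the 5 genes, -1.05 after thinning and -2.86 with at least 10 class II UMIs; for Kit -0.066 against cells that pass the exclusions and -0.069 to 0.12 without 1 library. Among cells with Siglech, Bst2 was at -0.013 and 2810417H13Rik at -0.086 with 3 of the 5 genes. The cause of the other changes was not tested. Dendritic-gated cells held 1871696 of 64763940 UMIs, which limits genes such as Rfxap and Spib.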
